A study of Mus musculus with 27 samples.

Results

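The fatty acid oxidation and ketogenesis module was a list of 33 mouse genes, picked by symbol from the 21850 genes of a deposited bulk RNA-seq table, and it was followed through 27 libraries of liver cells. By role it held 1 regulator (Ppara), 4 genes of fatty acid uptake, activation and storage (Cd36, Fabp1, Acsl1 and Plin2), 4 genes of the carnitine shuttle (Cpt1a, Slc25a20, Cpt2 and Crat) and 10 genes of mitochondrial β-oxidation (Acadvl, Acadl, Acadm, Acads, Hadha, Hadhb, Hadh, Acaa2, Decr1 and Eci1). The rest were 3 electron transfer genes (Etfa, Etfb and Etfdh), 4 peroxisomal genes (Ehhadh, Acaa1a, Acaa1b and Eci2), 2 acyl-CoA thioesterases (Acot1 and Acot2), 1 ketone body gene (Bdh1) and 4 other targets (Pdk4, Fgf21, Angptl4 and Vnn1). Of the 33, 32 had at least 1 count and 31 had enough counts to be tested.

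Hepatocytes take up fatty acids, activate them to acyl-CoA esters and either store them in lipid droplets or burn them. Long-chain acyl groups enter mitochondria on carnitine, are shortened by a dehydrogenase, a hydratase, a second dehydrogenase and a thiolase, and pass electrons to the respiratory chain through the electron transfer flavoprotein. Very long chains are shortened first in peroxisomes. In fasting, the liver turns much of the acetyl-CoA into ketone bodies, and the nuclear receptor PPARα, bound to DNA with RXR, is the best known activator of this whole programme.

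The study grew HepOrgs, organoids of mouse hepatocytes, and combined them with other liver cells into periportal assembloids. All samples are labelled as primary liver cells on a C57BL/6 background, and each of the 9 groups had 3 libraries. The mice were adults of both sexes, and the age behind each library is not given in the labels. Freshly isolated hepatocytes had no culture, and the third of their libraries carried the genotype label MDR2-het while its title read wild type. HepOrgs at passage 2 were kept in HM-Wnt, the expansion medium with EGF, FGF7, FGF10, HGF, gastrin, R-spondin, nicotinamide, CHIR and the TGFβ receptor inhibitor A83-01, or were moved to MM, which lacks these additions. Both media contained Wnt-conditioned medium and a ROCK inhibitor, and the HepOrgs were collected at day 7 (1 week) or day 14 (2 weeks). Assembloids were made in MM from 10 HepOrgs, 1000 cholangiocytes and either 250 portal mesenchymal cells (homeostatic) or 2500 (fibrotic-like), and were collected at day 7 (1 week) or day 18 (2.5 weeks). Their HepOrgs were wild type, but their cholangiocytes came from organoids of nuc-tdTomato reporter mice and their mesenchymal cells were sorted SCA1+ cells with the PDGFRα-H2B-GFP reporter, so assembloids also held reporter-strain cells. Assembloid libraries are mixtures, so fewer hepatocytes and less RNA of a gene per hepatocyte cannot be told apart in them. The labels do not say whether libraries of a group came from separate mice or cultures, and p values measure only the spread between these libraries.

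Total counts per library ranged from 30289364 to 65348596. Levels of single libraries are given as CPM, the count scaled to library size with TMM factors over all 27 libraries, and fold changes come from edgeR's quasi-likelihood test with Benjamini-Hochberg adjustment over all genes tested, called at an adjusted p under 0.05. Homeostatic replicate 2 at 1 week stood apart, with 61.3% of all genes at 0 counts against 26.7% to 35.9% in the other 26 libraries. Its summed level of 8 hepatocyte markers was 2085 CPM and that of 7 cholangiocyte markers 5490 CPM. Fibrotic-like replicate 3 at 1 week (2784 and 4432 CPM) and fibrotic-like replicate 2 at 2.5 weeks (10460 and 3892 CPM) were also poor in hepatocyte and rich in cholangiocyte markers. The hepatocyte sum was 64160 to 99410 CPM in fresh hepatocytes, 27100 to 53820 CPM in HM-Wnt and 19190 to 54600 CPM in MM HepOrgs, and all 8 markers were detected in every group. Mitochondrially encoded genes took 4.11% to 5.03% of the counts in fresh and 1.45% to 3.51% in all other libraries, and the part of this in the differences from fresh hepatocytes was not tested.

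PPARα binds pairs of the hexamer AGGTCA, so the promoters of the members were searched on both strands from 250 bases before to 50 bases after the start. RefSeq promoters were found for 28 of the 33 members. The hexamer was present in those of 6 members (Acadm, Acadvl, Cd36, Cpt1a, Fabp1 and Plin2), which is 20% of the members' 30 promoters against 16.3% of all 32851 promoters. The spaced pair written as AGGNCANAGGNCA was present in 1 member, Fabp1, and in 0.381% of all promoters. Any strict pair AGGTCANAGGTCA also holds the hexamer, and it was found in none of the members and in 0.0396% of all promoters. A match of letters is a description of the sequence and not a binding site. Fabp1 is shown whole because it carries the pair, and Cd36, Plin2 and Cpt1a are shown as windows around the hexamer because their levels in each library are given below. Capitals mark the match, which in all of them reads on the opposite strand of the gene, and coordinates are GRCm39. In Fabp1 a further copy of the hexamer nearer the start is left in lower case.
Fabp1, chr6:71176613-71176912, plus strand: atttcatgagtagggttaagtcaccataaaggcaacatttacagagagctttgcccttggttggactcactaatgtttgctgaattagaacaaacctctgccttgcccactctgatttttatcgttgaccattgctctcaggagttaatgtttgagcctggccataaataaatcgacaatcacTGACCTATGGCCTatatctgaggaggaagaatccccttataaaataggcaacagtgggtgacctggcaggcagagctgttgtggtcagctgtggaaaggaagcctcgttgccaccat
Cd36, chr5:18041090-18041144, minus strand: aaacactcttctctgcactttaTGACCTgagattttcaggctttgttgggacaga
Plin2, chr4:86588482-86588541, minus strand: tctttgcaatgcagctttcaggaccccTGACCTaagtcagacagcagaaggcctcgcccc
Cpt1a, chr19:3373180-3373239, plus strand: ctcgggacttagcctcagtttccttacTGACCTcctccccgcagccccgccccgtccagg
The Fabp1 pair lay 67 bases before the start, and the hexamers of Cd36, Plin2 and Cpt1a lay 228, 218 and 94 bases before it. The start is that of the RefSeq promoter, and the windows of Cd36 and Cpt1a lie inside the gene spans given below. Which start these cells use was not tested.

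Both members without enough counts are genes whose counting is uncertain. Acaa1a (chr9:119168742-119182956), a peroxisomal thiolase, had 0 counts in all 27 libraries, and 3.49% of the 100-base windows of its exons also occur in its neighbour Acaa1b. In addition, 7.11% of the exon bases of Acaa1a overlap Myd88 on the opposite strand, which had 0 counts in all 27 libraries as well. Etfb (chr7:43093493-43107224), the β subunit of the electron transfer flavoprotein, had 0 to 5 counts, and 99.6% of its span is covered by the gene Etfbl, which itself had 0 to 16 counts. Neither value says that the gene was silent. Acot1 and Acot2 lie next to each other on chromosome 12 and share 14.4% and 17.5% of their windows with other genes, so reads could be split between them. The libraries do not mark strand, and Acadvl (38.2% of exon bases, with Dvl2), Hadha (31.05%, with Garem2 and Hadhb) and Ppara (27.4%, with Cdpf1) overlap a neighbour.

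**Figure D1:**
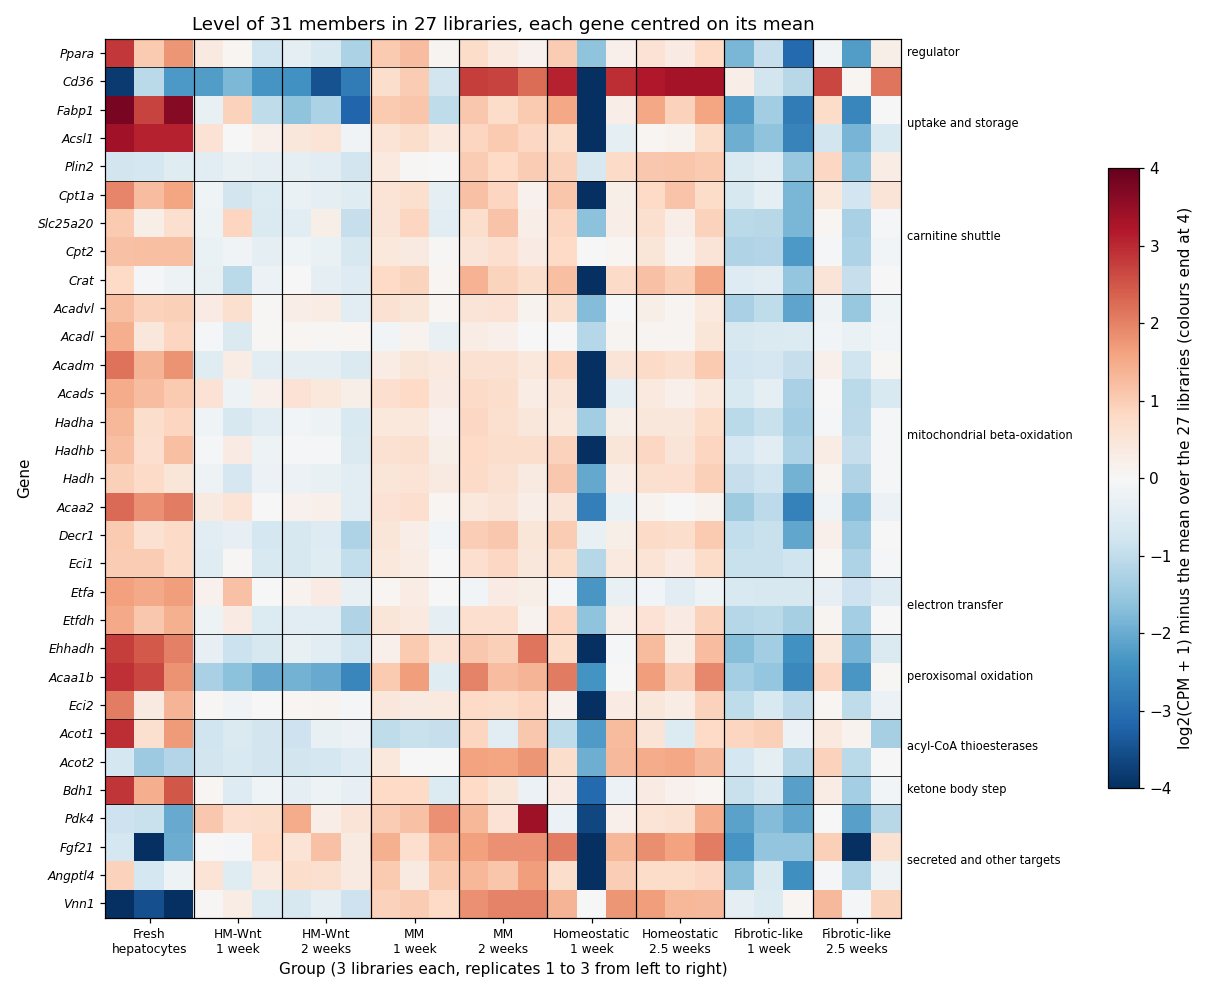
Level of the 31 tested members (rows, ordered by role) in each of the 27 libraries (columns, by group), as log2(CPM + 1) after subtracting each gene's mean over all libraries. Most rows are high in the 3 fresh libraries, Cd36, Acot2, Fgf21 and Vnn1 are highest in MM and homeostatic cultures, and homeostatic replicate 2 at 1 week is low in nearly every row.

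Against freshly isolated hepatocytes, HepOrgs in HM-Wnt had lower levels of most members of the oxidation chain and higher levels of 3 targets outside it. At 1 week 22 of the 31 tested members were lower (71%, against 24.8% of all 13396 genes tested) and 3 were higher (9.68%, against 24.9%). At 2 weeks the counts were again 22 lower (background 25.7%) and 3 higher (background 26.1%). The share of higher members lay under the background at both times. All 10 mitochondrial β-oxidation genes, both tested electron transfer genes, all 3 tested peroxisomal genes, Ppara and Bdh1 were lower at both times. Pdk4, Fgf21 and Vnn1 were higher at both times, while Cd36, Plin2, Slc25a20, Crat, Acot2 and Angptl4 had no call. The members' median log2 fold change was −1.33 at 1 week and −1.40 at 2 weeks, against 0.02 and 0.03 over all genes tested.

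HepOrgs in MM differed from fresh hepatocytes in fewer members of the chain, and these comparisons use the same 3 fresh libraries. At 1 week 20 members were lower (64.5%, background 21.3%) and 6 were higher (19.4%, background 21.5%). At 2 weeks 13 were lower (41.9%, background 20%) and 7 were higher (22.6%, background 19.7%). The share of higher members lay near the background at both times. The 7 higher members at 2 weeks were Cd36, Plin2, Acot2, Pdk4, Fgf21, Angptl4 and Vnn1. Cpt1a, Acadvl, Hadha, Hadhb, Hadh, Decr1, Eci1, Acaa1b and Eci2 were lower in HM-Wnt at 2 weeks and had no call in MM at 2 weeks. The members' median log2 fold change was −0.72 at 1 week and −0.60 at 2 weeks, against 0.0039 and −0.0093 over all genes.

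**Figure D2:**
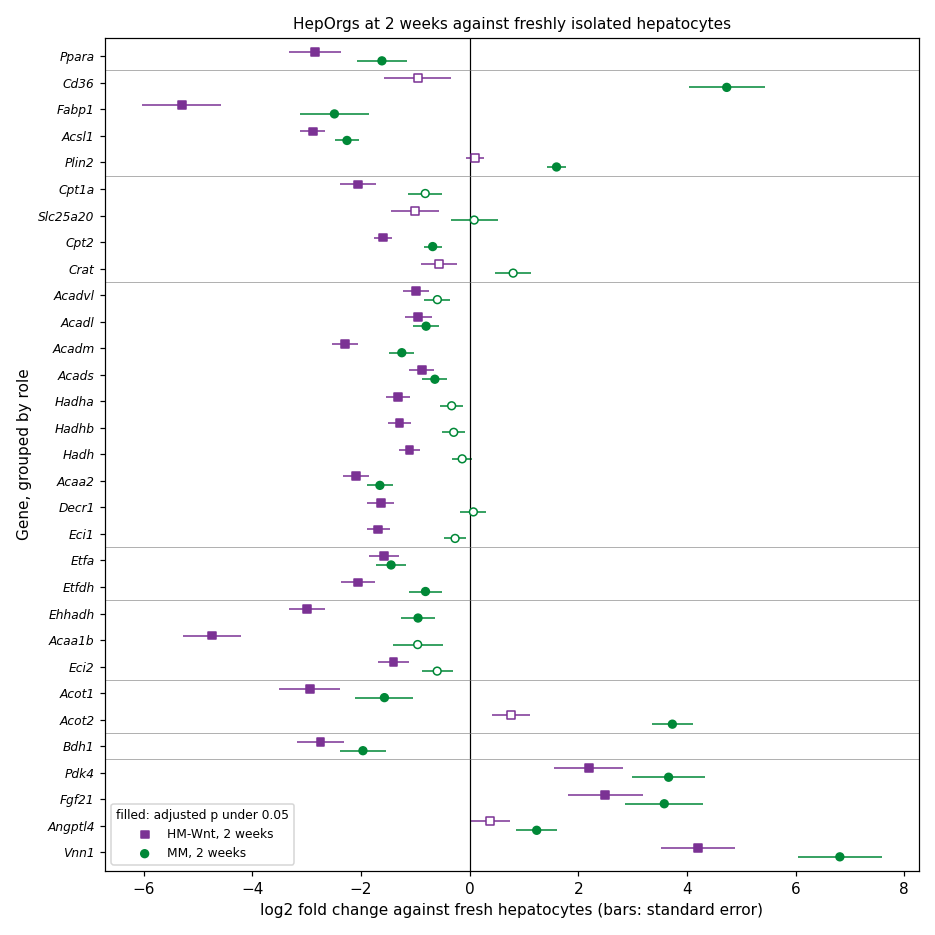
Log2 fold change against freshly isolated hepatocytes (horizontal axis) for each of the 31 tested members (vertical axis, by role) in HM-Wnt and MM HepOrgs at 2 weeks. Bars are standard errors and filled symbols have an adjusted p under 0.05. Vnn1 reached a log2 fold change of 6.81 in MM at 2 weeks, and Fabp1 and Acaa1b lay at −5.30 and −4.75 in HM-Wnt at 2 weeks.

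Ppara (chr15:85618656-85687067), the receptor itself, was at 298, 86.4 and 145 CPM in the 3 fresh libraries. In HM-Wnt it was at 53.9, 43.4 and 23.7 CPM at 1 week and at 31.9, 26.6 and 16.8 CPM at 2 weeks. In MM it was at 87.2, 98.8 and 44.5 CPM at 1 week and at 69.4, 54.8 and 46.6 CPM at 2 weeks. All HM-Wnt libraries lay under all fresh libraries, whereas 2 MM libraries at 1 week overlapped the lowest fresh one. The fold was 7.21 lower in HM-Wnt at 2 weeks (log2 −2.85 ± 0.48 SE, adjusted p = 0.0002712 by edgeR) and 3.07 lower in MM at 2 weeks (log2 −1.62 ± 0.45, adjusted p = 0.01231 by edgeR).

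Fabp1 (chr6:71176809-71182016), the abundant fatty acid binding protein of the hepatocyte cytosol, was at 10870, 5074 and 9827 CPM in fresh hepatocytes. It was at 642, 1481 and 388 CPM in HM-Wnt at 1 week and at 255, 329 and 86.1 CPM at 2 weeks. In MM it was at 1633, 1677 and 387 CPM at 1 week and at 1644, 1309 and 1607 CPM at 2 weeks. No cultured library reached the lowest fresh one. At 2 weeks the fold was 39.5 lower in HM-Wnt (log2 −5.30 ± 0.72, adjusted p = 5.487e-05 by edgeR) and 5.62 lower in MM (log2 −2.49 ± 0.64, adjusted p = 0.007251 by edgeR). Acsl1, which activates long-chain fatty acids to acyl-CoA, was at 1876, 1548 and 1549 CPM in fresh hepatocytes and between 166 and 378 CPM in the 12 HepOrg libraries. Its log2 fold change was −2.89 ± 0.23 in HM-Wnt and −2.26 ± 0.23 in MM at 2 weeks (adjusted p = 7.009e-07 and 6.989e-06 by edgeR).

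Cd36 (chr5:17986432-18094067), a fatty acid translocase of the cell surface, was at 2.53, 22.6 and 9.22 CPM in fresh hepatocytes and at 3.44 to 13.3 CPM in the 6 HM-Wnt libraries. It was at 80.6, 100 and 29 CPM in MM at 1 week and at 340, 321 and 234 CPM at 2 weeks. All 6 MM libraries lay above every fresh and every HM-Wnt library. Against fresh hepatocytes the fold in MM was 6.14 at 1 week (log2 2.62 ± 0.64, adjusted p = 0.005253 by edgeR) and 26.6 at 2 weeks (log2 4.73 ± 0.70, adjusted p = 0.0001769 by edgeR). Endothelial and immune cells also express Cd36: the summed level of 7 endothelial markers was 49.2 to 198 CPM in fresh libraries and at most 2.21 CPM in HepOrgs, and that of 7 immune markers was 35.9 to 376 CPM in fresh libraries and 7.54 to 69.6 CPM in HepOrgs apart from 757 CPM in MM replicate 3 at 2 weeks, the library with the lowest Cd36 of its group. Of the 7 immune markers only Clec4f, a Kupffer cell marker, was at 0 in all HepOrg groups. Apart from Cd52 in HM-Wnt at 2 weeks, the other immune markers had counts in every HepOrg group. The part of endothelial and immune cells in the Cd36 level was not tested. Plin2 (chr4:86565912-86588459), a coat protein of lipid droplets, was at 662, 681 and 795 CPM in fresh hepatocytes and at 665 to 904 CPM in HM-Wnt. In MM it was at 1455, 1161 and 1123 CPM at 1 week and at 2229, 1954 and 2253 CPM at 2 weeks, above all fresh and HM-Wnt libraries.

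The carnitine shuttle genes were lower or had no call. Cpt1a (chr19:3371853-3437996), which makes acylcarnitines at the outer mitochondrial membrane and sets the rate of entry, was at 354, 211 and 272 CPM in fresh hepatocytes. In HM-Wnt it was at 80.1, 54.2 and 61.1 CPM at 1 week and at 74.5, 68.4 and 64.2 CPM at 2 weeks, and in MM at 132, 139 and 69.6 CPM and at 205, 163 and 101 CPM. All cultured libraries lay under the lowest fresh one. At 2 weeks the log2 fold change was −2.06 ± 0.33 in HM-Wnt (adjusted p = 0.0001828 by edgeR) and −0.82 ± 0.32 in MM, where the test missed the threshold (adjusted p = 0.05404 by edgeR). Cpt2, which turns acylcarnitines back into acyl-CoA inside the mitochondrion, was 3.03-fold lower in HM-Wnt and 1.6-fold lower in MM at 2 weeks (adjusted p = 7.942e-06 and 0.00586 by edgeR). Slc25a20, the carnitine carrier of the inner membrane, and Crat, which handles short acyl groups, had no call in any of the 4 comparisons with fresh hepatocytes (log2 fold change −1.01 to 0.08 and −0.79 to 0.80).

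Within mitochondrial β-oxidation, the medium-chain dehydrogenase Acadm had the largest decrease in HM-Wnt at both times. It was at 637, 360 and 489 CPM in fresh hepatocytes, 93.6 to 172 CPM in HM-Wnt and 172 to 216 CPM in MM. The highest HepOrg library stayed under the lowest fresh one, with a log2 fold change of −2.30 ± 0.24 in HM-Wnt and −1.25 ± 0.23 in MM at 2 weeks (adjusted p = 6.44e-06 and 0.0009369 by edgeR). The thiolase Acaa2 was 3.15-fold lower in MM at 2 weeks (log2 −1.65 ± 0.24, adjusted p = 0.0001677 by edgeR), the largest decrease of the 10 genes there. The smallest fold among called genes was that of Acads, the short-chain dehydrogenase, at 1.84-fold lower in HM-Wnt and 1.56-fold lower in MM at 2 weeks (adjusted p = 0.006016 and 0.03918 by edgeR). Over the 10 genes the log2 fold change ran from −2.30 to −0.88 in HM-Wnt and from −1.65 to 0.07 in MM at 2 weeks. Etfa, the α subunit of the electron transfer flavoprotein, and Etfdh, which passes its electrons to ubiquinone, were 3-fold and 4.16-fold lower in HM-Wnt, and 2.73-fold and 1.76-fold lower in MM at 2 weeks.

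The peroxisomal thiolase Acaa1b (chr9:118977091-118986161) was at 1891, 1564 and 862 CPM in fresh hepatocytes. It was at 99.1, 77.8 and 60.6 CPM in HM-Wnt at 1 week and at 65.6, 59.6 and 39.2 CPM at 2 weeks. In MM it was at 510, 786 and 175 CPM at 1 week and at 976, 588 and 633 CPM at 2 weeks. Every HM-Wnt library was under every MM and fresh library, and 1 MM library at 2 weeks reached the range of fresh hepatocytes. The fold against fresh hepatocytes was 26.9 lower in HM-Wnt at 2 weeks (log2 −4.75 ± 0.53, adjusted p = 1.107e-05 by edgeR), and in MM the log2 fold change of −0.96 ± 0.46 had no call (adjusted p = 0.1145 by edgeR). Ehhadh, the bifunctional peroxisomal enzyme, was at 390, 314 and 235 CPM in fresh hepatocytes, 31.1 to 46 CPM in HM-Wnt and 65.7 to 253 CPM in MM. Eci2, an enoyl-CoA isomerase, was 2.65-fold lower in HM-Wnt at 2 weeks (adjusted p = 0.001328 by edgeR). Bdh1, which interconverts acetoacetate and β-hydroxybutyrate, was at 416, 155 and 315 CPM in fresh hepatocytes and at 37.8 to 98.4 CPM in all 12 HepOrg libraries, with no overlap. At 2 weeks it was 6.72-fold lower in HM-Wnt and 3.91-fold lower in MM (adjusted p = 0.0001635 and 0.002301 by edgeR).

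Of the targets outside the chain, Pdk4, Fgf21 and Vnn1 were higher in all 4 comparisons. Vnn1 (chr10:23770586-23781241), a pantetheinase anchored at the cell surface, was at 2.88, 12 and 0.731 CPM in fresh hepatocytes. It was at 152, 181 and 100 CPM in HM-Wnt at 1 week, at 95.2, 111 and 82.8 CPM at 2 weeks, at 280, 301 and 255 CPM in MM at 1 week and at 531, 590 and 594 CPM at 2 weeks. The fresh, HM-Wnt and MM libraries did not overlap, and the fold against fresh hepatocytes was 18.4 in HM-Wnt and 113 in MM at 2 weeks (log2 4.20 ± 0.68 and 6.81 ± 0.77, adjusted p = 0.0002176 and 1.905e-05 by edgeR). Fgf21, a fasting hormone of the liver, was at 25, 1.05 and 9.56 CPM in fresh hepatocytes, 39.1 to 94.2 CPM in HM-Wnt and 65.6 to 149 CPM in MM. Pdk4, a kinase that turns off pyruvate dehydrogenase, was at 6.13, 5.78 and 2.1 CPM in fresh hepatocytes and 14.2 to 131 CPM in HepOrgs. Angptl4, a secreted inhibitor of lipoprotein lipase, passed in MM at 2 weeks (2.35-fold, log2 1.23 ± 0.38, adjusted p = 0.01981 by edgeR), a call lost without fresh replicate 3 (adjusted p = 0.0746 by edgeR), and had no call in the other comparisons with fresh hepatocytes. Of the thioesterases, which cut acyl-CoA into free fatty acid and CoA, Acot2 of mitochondria was 13.3-fold higher in MM at 2 weeks (log2 3.73 ± 0.38, adjusted p = 8.493e-06 by edgeR), while the cytosolic Acot1 was 2.97-fold lower (log2 −1.57 ± 0.53, adjusted p = 0.03124 by edgeR).

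These counts depended on the fresh libraries and on the scale. Without fresh replicate 3, the library with the conflicting genotype label, Pdk4 and Fgf21 lost their call in HM-Wnt at 1 week and Crat gained one (1 higher, 23 lower), MM at 1 week had 6 higher and 17 lower, and MM at 2 weeks had 6 higher and 12 lower. Without fresh replicate 1 the lower members in MM numbered 13 at 1 week and 7 at 2 weeks, and the higher ones in HM-Wnt at 2 weeks numbered 5. On log2(TPM + 1), where the median of all genes shifted up by 0.40 to 0.68, limma called 5 higher and 18 lower in HM-Wnt at 1 week, 6 and 16 at 2 weeks, 8 and 10 in MM at 1 week and 9 and 6 at 2 weeks. With all 27 libraries in 1 fit, 12 and 13 members passed in HM-Wnt at 1 and 2 weeks and 6 and 8 in MM. No share of all genes is given for the settings of this paragraph, so their counts are not set against a background.

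The comparison of the 2 media asks what the minimal medium does to HepOrgs of the same passage and age. In MM, members of most roles were higher than in HM-Wnt and none was called lower. At 2 weeks 20 of the 31 tested members were higher (64.5%, against 6.84% of all 12989 genes) and 0 were lower (background 4.61%). Over both times 21 were higher (67.7%, background 11.5%) and 0 lower (background 10%). At 1 week 5 were higher (16.1%, background 1.76%), namely Cd36, Hadh, Acaa1b, Acot2 and Vnn1, and 0 lower (background 1.22%). In none of these did DESeq2 call a member lower, and the number of members with an unadjusted p under 0.05 was 19 at 1 week, 26 at 2 weeks and 25 over both times. For counts at an unadjusted p and for calls by DESeq2, no share of all genes is given, here or below. Such counts are therefore not set against a background. The members' median log2 difference was 0.60 at 1 week, 1.11 at 2 weeks and 0.88 over both times, against −0.0042, −0.022 and −0.017 over all genes.

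**Figure D3:**
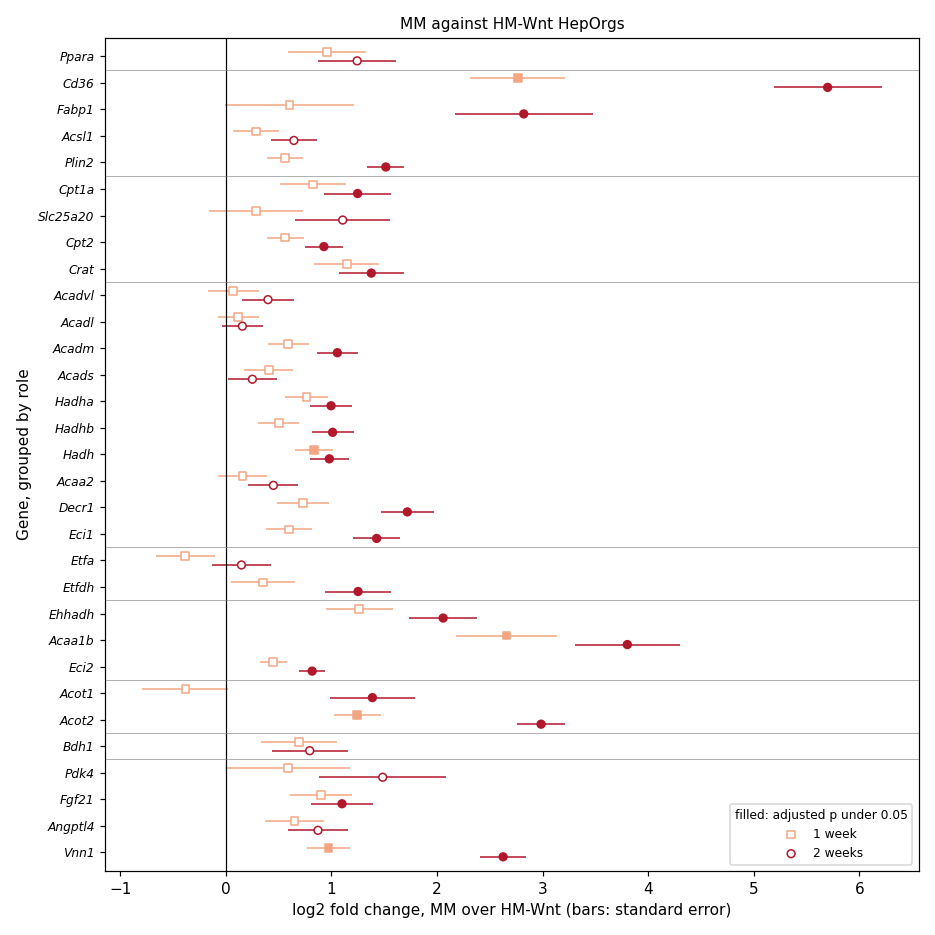
Log2 fold change of MM over HM-Wnt HepOrgs (horizontal axis) for each of the 31 tested members (vertical axis, by role) at 1 week and at 2 weeks. Bars are standard errors and filled symbols have an adjusted p under 0.05. All 31 values at 2 weeks lie above 0, from 0.15 for Etfa to 5.70 for Cd36.

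Of all members Cd36, an uptake gene, had the largest difference at each time. It was 6.79-fold higher in MM at 1 week (log2 2.76 ± 0.45, adjusted p = 0.01249 by edgeR) and 52-fold higher at 2 weeks (log2 5.70 ± 0.51, adjusted p = 0.0003185 by edgeR), and the levels given above did not overlap between the media at either time. Plin2 was 2.86-fold higher at 2 weeks (log2 1.52 ± 0.18, adjusted p = 0.0008515 by edgeR). Fabp1 at 2 weeks lay at 1309 to 1644 CPM in MM and at 86.1 to 329 CPM in HM-Wnt, a log2 difference of 2.82 ± 0.66 (adjusted p = 0.01984 by edgeR), whereas at 1 week its ranges overlapped (387 to 1677 and 388 to 1481 CPM). Acsl1 had no call at either time (log2 0.29 ± 0.22 and 0.64 ± 0.22).

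Among the shuttle genes at 2 weeks, Cpt1a, Cpt2 and Crat were higher in MM and Slc25a20 had no call. Crat was at 119, 84.7 and 74.5 CPM in MM and at 45.8, 35.3 and 31.1 CPM in HM-Wnt. Those groups did not overlap, and the fold was 2.6 (log2 1.38 ± 0.31, adjusted p = 0.01657 by edgeR). Cpt1a differed by log2 1.25 ± 0.32 (adjusted p = 0.02832 by edgeR) and Cpt2 by log2 0.93 ± 0.18 (adjusted p = 0.008253 by edgeR).

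In mitochondrial β-oxidation 6 of the 10 genes were higher in MM at 2 weeks. Decr1, the dienoyl-CoA reductase needed for unsaturated chains, was at 208, 222 and 147 CPM in MM and at 67.1, 72.6 and 43.7 CPM in HM-Wnt, a 3.29-fold difference without overlap (log2 1.72 ± 0.25, adjusted p = 0.002525 by edgeR). Eci1, an isomerase for the same kind of chain, differed by log2 1.43 ± 0.22. Hadha and Hadhb, the subunits of the trifunctional protein, differed by 1.00 ± 0.20 and 1.01 ± 0.20, Hadh by 0.98 ± 0.18 and Acadm by 1.06 ± 0.20 on the log2 scale. Acadvl, Acadl, Acads and Acaa2 had no call, with log2 differences of 0.40, 0.16, 0.25 and 0.45. Of the electron transfer genes, Etfdh was 2.38-fold higher (adjusted p = 0.0253 by edgeR), whereas Etfa lay at 193, 257 and 242 CPM in MM and 226, 257 and 168 CPM in HM-Wnt, with overlap and no call.

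All 3 tested peroxisomal genes were higher in MM at 2 weeks. Acaa1b was 14-fold higher (log2 3.80 ± 0.50, adjusted p = 0.001388 by edgeR) and 6.32-fold higher at 1 week (log2 2.66 ± 0.47, adjusted p = 0.02032 by edgeR). Ehhadh differed by log2 2.06 ± 0.33 (adjusted p = 0.003362 by edgeR). Eci2 had the smallest of the 3 differences, 1.76-fold, with a small spread (log2 0.82 ± 0.13, adjusted p = 0.003031 by edgeR).

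Both thioesterases were higher in MM at 2 weeks. Acot2 was at 10.8, 10.6 and 12 CPM in MM and at 1.34, 1.36 and 1.7 CPM in HM-Wnt (7.92-fold, log2 2.99 ± 0.23, adjusted p = 0.0002919 by edgeR). Acot1 was at 7.67, 2.51 and 9.22 CPM in MM and at 1.69, 2.89 and 3.09 CPM in HM-Wnt, which overlapped (log2 1.39 ± 0.40, adjusted p = 0.04803 by edgeR). Vnn1 and Fgf21 were 6.17-fold and 2.14-fold higher (adjusted p = 0.0002919 and 0.03511 by edgeR), while Pdk4, Angptl4, Bdh1 and Ppara had no call at 2 weeks without the replicate block described below. Over both times Ppara and Angptl4 passed as well (log2 1.10 ± 0.26 and 0.76 ± 0.20, adjusted p = 0.01299 and 0.01966 by edgeR).

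Of the 31 members, 13 had all 6 MM libraries above all 6 HM-Wnt libraries, against 5.02% of 13075 genes. They were Cd36, Plin2, Cpt2, Crat, Acadm, Hadha, Hadh, Decr1, Ehhadh, Acaa1b, Eci2, Acot2 and Vnn1. The summed hepatocyte markers overlapped between the media: they were at 43140 to 53820 CPM in HM-Wnt and 19190 to 51850 CPM in MM at 1 week, and 27100 to 31870 CPM and 25710 to 54600 CPM at 2 weeks. At 2 weeks 2 of the 3 MM libraries had a higher sum than every HM-Wnt library, and MM replicate 3 had a lower one (25710 CPM). The part of this sum in the members' difference was not tested. The sum of the mesenchyme markers was higher in MM in all 6 same-numbered pairs, at 33.7 to 98 CPM in HM-Wnt and 107 to 270 CPM in MM at 1 week and at 18.5 to 84.2 CPM and 79.9 to 214 CPM at 2 weeks. The sum of the cholangiocyte markers was 211 to 277 CPM in HM-Wnt and 226 to 382 CPM in MM at 1 week, and at 2 weeks it was lower in MM without overlap (288 to 459 CPM and 191 to 273 CPM). Their part in the members' difference was not tested either.

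**Figure D4:**
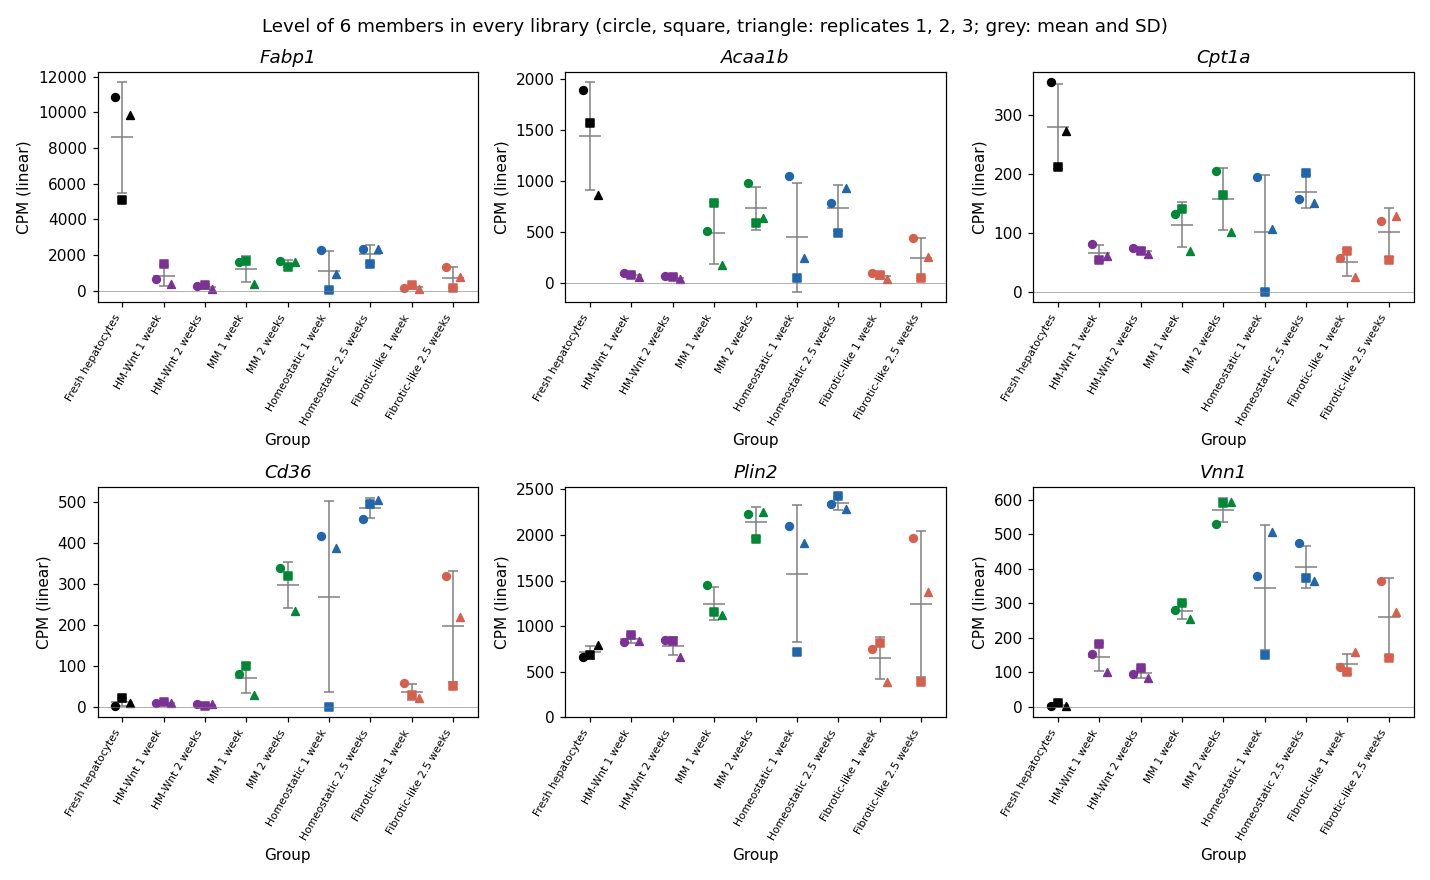
Level in CPM on linear axes of Fabp1, Acaa1b, Cpt1a, Cd36, Plin2 and Vnn1 in each group. Circles, squares and triangles are replicates 1, 2 and 3, and the line and bar are the mean and SD (n = 3 libraries). Cd36 is under 23 CPM in fresh and HM-Wnt libraries and reaches 340 CPM in MM at 2 weeks, and in homeostatic replicate 2 at 1 week it is at 0.

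Replicate numbers paired the HepOrg libraries, and with the number as a block 14 members were higher in MM at 1 week (background 5.62%) and 0 lower (background 3.86%). These 14 were Ppara, Cd36, Cpt2, Crat, Acadm, Hadha, Hadh, Decr1, Eci1, Ehhadh, Acaa1b, Eci2, Acot2 and Vnn1. At 2 weeks the block raised the count from 20 to 26 (background 11%), with 0 lower (background 8.6%). The members added at 2 weeks were Ppara (log2 1.28 ± 0.17, adjusted p = 0.0007821 by edgeR), Slc25a20 (log2 1.14 ± 0.16, adjusted p = 0.001054 by edgeR), Acsl1, Acaa2, Acadvl and Angptl4 (adjusted p from 0.02467 to 0.04616 by edgeR). The 5 calls at 1 week without the block fell to 0 without MM replicate 1 or without HM-Wnt replicate 3 and to 2 without MM replicate 2. At 2 weeks the 20 calls fell to 13 without MM replicate 1. With all 27 libraries in 1 fit, which takes its spread also from the 3 libraries that stood apart, 0 members passed at 1 or 2 weeks and 1 over both times, with median log2 differences of 0.57, 1.04 and 0.84.

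From 1 to 2 weeks in MM, Acot2 was the only member past the threshold, and 0.0154% of all genes were called higher and 0% lower. It was at 4.17, 2.83 and 2.77 CPM at 1 week and at 10.8, 10.6 and 12 CPM at 2 weeks, which did not overlap (3.53-fold, log2 1.82 ± 0.22, adjusted p = 0.02135 by edgeR). The call was lost without MM replicate 2 of 1 week and without MM replicate 1 or 3 of 2 weeks. An unadjusted p under 0.05 was reached by 9 members, and DESeq2 called 6 higher (Cd36, Plin2, Eci2, Acot1, Acot2 and Vnn1). Cd36 had a log2 change of 2.14 ± 0.43 (adjusted p = 0.1335 by edgeR) and Vnn1 one of 1.09 ± 0.21 (adjusted p = 0.133 by edgeR). For both, all 3 libraries at 2 weeks lay above all 3 at 1 week. With the replicate number as a block Acot2 was again the only member called (adjusted p = 0.04759 by edgeR). Under the block Vnn1 and Cd36 missed the threshold (adjusted p = 0.05281 and 0.07277 by edgeR).

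In HM-Wnt 0 members were called between 1 and 2 weeks, with 0% of all genes called in either direction. Here 2 members had an unadjusted p under 0.05 by edgeR and DESeq2 called 0. The median log2 change of the members was −0.11 in HM-Wnt and 0.41 in MM, against 0.00051 and 0.0027 over all genes. The difference between the media in the change over time had 0 calls among members and 0% among all genes, 8 members with an unadjusted p under 0.05, and 4 calls by DESeq2 (Cd36, Plin2, Acot2 and Vnn1).

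The assembloid comparisons ask whether the portal mesenchyme ratio goes with the level of the members in the whole mixture of cells. With all 12 assembloid libraries, 0 of the 31 tested members and 0% of all 14253 genes were called by edgeR in either direction at 1 week, at 2.5 weeks or over both times. An unadjusted p under 0.05 was reached by 12 members at 1 week, 1 at 2.5 weeks and 13 over both times, and DESeq2 called 3, 0 and 6 lower in fibrotic-like assembloids. The share of all genes is not given for either kind of count. The members' median log2 difference was −1.39 at 1 week, −0.95 at 2.5 weeks and −1.17 over both times, against 0.20, 0.03 and 0.14 over all genes. Between the times 0 members passed in homeostatic and 0 in fibrotic-like assembloids, and 0 for the difference of the changes, with 0% of all genes called. Unadjusted p under 0.05 was seen for 0, 2 and 0 members there, and DESeq2 called 0 in each.

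The groups could be told apart in single libraries. At 2.5 weeks 27 of the 31 members had all 3 homeostatic above all 3 fibrotic-like libraries (16.2% of 13382 genes), with Ehhadh, Etfa, Bdh1 and Acot1 as the exceptions. Cd36 at 2.5 weeks was at 459, 496 and 506 CPM in homeostatic and at 320, 51.6 and 219 CPM in fibrotic-like assembloids. Fabp1 was at 2318, 1499 and 2363 CPM and at 1315, 128 and 778 CPM. In both genes the lowest value was that of fibrotic-like replicate 2, the library with the low hepatocyte marker sum.

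Homeostatic replicate 2 at 1 week decided the counts of calls. In it Cd36, Acsl1, Cpt1a, Crat, Acads, Ehhadh, Acot1, Acot2, Pdk4, Fgf21 and Angptl4 were at 0 counts, whereas Vnn1 was at 150 CPM and Plin2 at 712 CPM. Without it 20 members were lower in fibrotic-like assembloids at 1 week (background 4.87%) and 0 higher (background 3.14%), and over both times 29 were lower (background 13.4%) and 0 higher (background 16.2%). With the replicate number as a block as well, the 20 calls at 1 week fell to 0 (0% of all genes), with 27 members at an unadjusted p under 0.05, so each adjusted p given below for 1 week misses the threshold under the block. At 2.5 weeks the count stayed at 0 by edgeR, with 18 members at an unadjusted p under 0.05. The members' median log2 difference was −1.86 at 1 week and −1.39 over both times. At 1 week both remaining homeostatic libraries lay above all 3 fibrotic-like ones in 29 of the 31 members (23.4% of 13493 genes), all except Acads and Acot1.

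**Figure D5:**
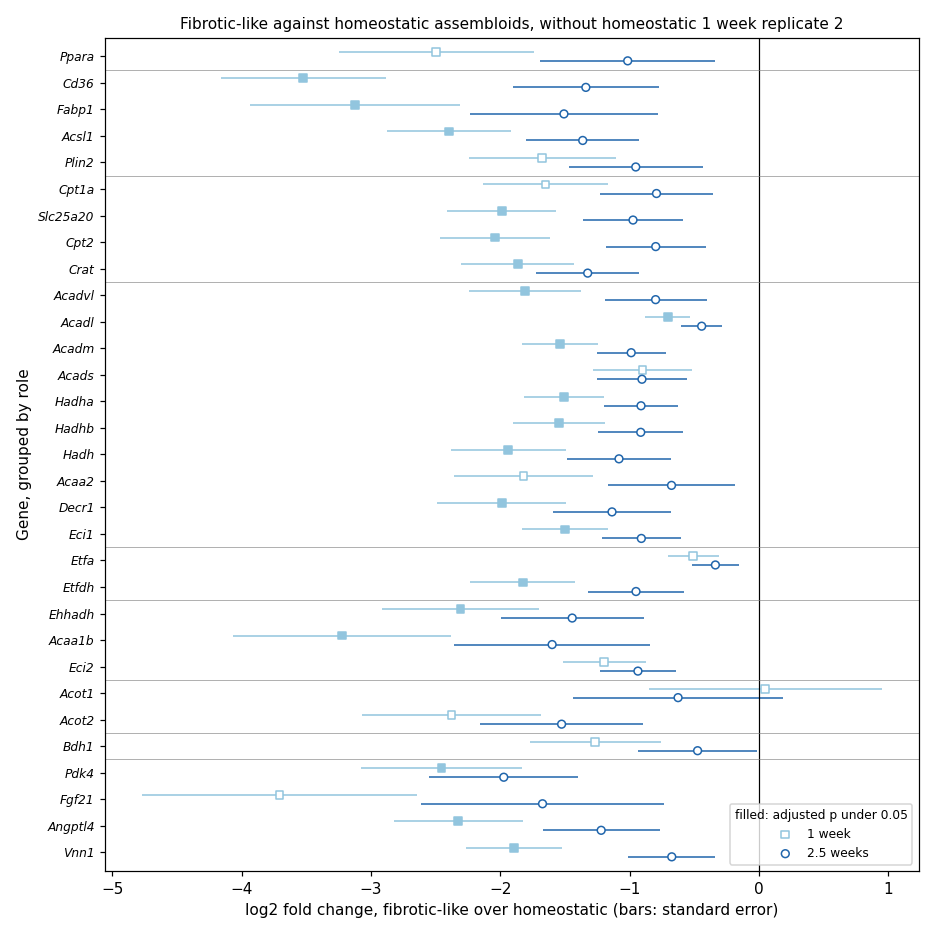
Log2 fold change of fibrotic-like over homeostatic assembloids (horizontal axis) for the 31 tested members (vertical axis, by role) at 1 week and at 2.5 weeks, without homeostatic replicate 2 of 1 week. Bars are standard errors and filled symbols have an adjusted p under 0.05. At 2.5 weeks every value is negative, from −1.97 to −0.34, and none is filled.

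Without that library the decreases covered most roles. Cd36 at 1 week was at 418 and 389 CPM in homeostatic and at 58.6, 29 and 22.4 CPM in fibrotic-like assembloids (11.5-fold lower, log2 −3.52 ± 0.64, adjusted p = 0.04079 by edgeR). Acaa1b was at 1051 and 247 CPM and at 95.4, 83.1 and 40.4 CPM (9.32-fold lower, log2 −3.22 ± 0.84, adjusted p = 0.04792 by edgeR). Acsl1 was at 307 and 143 CPM and at 46.4, 59.2 and 27.8 CPM (5.27-fold lower, log2 −2.40 ± 0.48, adjusted p = 0.04309 by edgeR). By role, 3 of the 4 uptake and storage genes, 3 of the 4 shuttle genes, 8 of the 10 mitochondrial β-oxidation genes, 2 of the 3 tested peroxisomal genes and 3 of the 4 other targets passed. Within β-oxidation the largest decrease was that of Decr1 (3.97-fold, adjusted p = 0.04692 by edgeR) and the smallest called one that of Acadl (1.63-fold, adjusted p = 0.04646 by edgeR). Ppara had a log2 difference of −2.49 ± 0.75 with no call at 1 week (adjusted p = 0.0628 by edgeR) and was 3.37-fold lower over both times (log2 −1.75 ± 0.51, adjusted p = 0.03023 by edgeR). Fgf21 was 6.45-fold lower over both times (log2 −2.69 ± 0.71, adjusted p = 0.02259 by edgeR), and Bdh1 and Acot1 had no call at either time or over both.

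Cell composition moved with these differences. At 1 week the hepatocyte marker sum was 38480 and 78480 CPM in the homeostatic libraries other than replicate 2 and 2784 to 20490 CPM in the fibrotic-like ones. At 2.5 weeks it was 49540 to 59750 CPM and 10460 to 51130 CPM. The sum of 9 mesenchyme markers was 1069 CPM in homeostatic replicate 2 at 1 week and 150 to 332 CPM in the other homeostatic libraries. Fibrotic-like replicate 3 at 1 week lay inside that range at 323 CPM, and the other fibrotic-like libraries were at 1419 to 6611 CPM. The sum of the cholangiocyte markers was 173 to 559 CPM in homeostatic libraries other than replicate 2 of 1 week and 498 to 4432 CPM in fibrotic-like ones. No marker of these 3 lists was at 0 throughout an assembloid group. Without all 3 libraries that stood apart, 28 members were lower at 1 week, 0 at 2.5 weeks (20 at an unadjusted p under 0.05) and 27 over both times. No share of all genes is given for this setting. Of these lists, MM HepOrgs at 1 week had 19190 to 51850 CPM of hepatocyte, 226 to 382 CPM of cholangiocyte and 107 to 270 CPM of mesenchyme markers. The part of cell composition in the decreases was not tested.

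At 1 week, against MM HepOrgs in the same medium, 0 members and 0% of all 13733 genes were called by edgeR in homeostatic assembloids. The passage of the HepOrgs in assembloids is not given in the labels. In homeostatic assembloids 0 members had an unadjusted p under 0.05 and DESeq2 called 0. Fibrotic-like assembloids also had 0 calls (0% of all genes), with 12 members at an unadjusted p under 0.05 and 2 called by DESeq2. Leaving homeostatic replicate 2 out of this fit, although it is in neither group, gave 24 members lower in fibrotic-like assembloids (background 10.3%) and 0 higher (background 12.6%), and again 0 for homeostatic ones, where 4 members had an unadjusted p under 0.05. Pdk4 was at 24.6, 27.2 and 43.4 CPM in MM HepOrgs and at 1.84, 2.78 and 1.97 CPM in fibrotic-like assembloids (14.8-fold lower, log2 −3.89 ± 0.32, adjusted p = 0.006499 by edgeR). The homeostatic libraries other than replicate 2 also lay under every MM HepOrg library for Pdk4, at 9.67 and 13.6 CPM, with no call. Acsl1 was 6.19-fold lower (adjusted p = 0.01191 by edgeR) and Ppara 6.51-fold lower (adjusted p = 0.02586 by edgeR). Cd36 had no call here (log2 −0.99 ± 0.51), and its levels of 80.6, 100 and 29 CPM in MM HepOrgs and 58.6, 29 and 22.4 CPM in fibrotic-like assembloids overlapped, while homeostatic replicates 1 and 3 were at 418 and 389 CPM.

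The pathway has 71 other genes in 8 lists. Between the media over both times 40 of the 65 tested were higher in MM and 3 lower (background 11.5% and 10%), and at 2 weeks 29 were higher and 1 lower (background 6.84% and 4.61%). Against fresh hepatocytes at 2 weeks, 12 of 66 were higher and 42 lower in HM-Wnt (background 26.1% and 25.7%), and 16 were higher and 24 lower in MM (background 19.7% and 20%), where the share of higher genes lies near the background. Oxct1, which breaks ketone bodies down in other tissues, was the 1 gene of 6 in the ketone body list that was lower in MM (log2 −1.27 ± 0.33, adjusted p = 0.0185 by edgeR), and 3 were higher.

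The background of the list counts that follow is 11.5% higher and 10% lower. In the peroxisome list 10 of 12 genes were higher in MM over both times and 0 lower, from Abcd3, a fatty acid transporter of the peroxisome membrane (log2 0.71 ± 0.14), to Scp2, a peroxisomal thiolase and sterol carrier (log2 2.25 ± 0.30). Of the other mitochondrial genes 5 of 8 were higher and 1 lower. These were led by Acacb, which makes the malonyl-CoA that inhibits the shuttle (log2 2.59 ± 0.29), and Cpt1c, the brain type of the shuttle enzyme, was the lower one (log2 −1.74 ± 0.24). All 5 tested ω-oxidation genes of the Cyp4a family were higher, from Cyp4a32 (log2 1.75 ± 0.19) to Cyp4a12a (log2 6.50 ± 1.29), though these genes are near copies of each other and their reads could be split. Of the lipid droplet list 7 of 10 were higher and 1 lower, with Cidec, which fuses droplets, at log2 1.74 ± 0.33 and Abhd5, a lipase activator, at log2 −0.46 ± 0.09.

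Against the same background of 11.5% and 10%, 4 of 10 further uptake genes were higher and 0 lower, from the bile acid and fatty acid ligase Slc27a5 (log2 1.00 ± 0.28) to Fabp2 (log2 4.12 ± 0.64). The other thioesterases had 4 of 5 higher and 0 lower, from Acot8 (log2 0.53 ± 0.13) to Acot3 (log2 4.25 ± 0.57), another gene with near copies. Of 9 regulators 2 were higher and 0 lower, a small count to set against that background, namely Creb3l3, a liver transcription factor of fasting (log2 1.17 ± 0.14), and Nr0b2, the bile acid induced repressor (log2 3.19 ± 0.34). The partner receptor Rxra and the coactivator Ppargc1a had no call between the media (log2 0.14 ± 0.19 and 0.10 ± 0.31).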

How the data were processed

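The authors prepared SMARTseq2 libraries, aligned them with STAR to GRCm39 and counted reads per gene with featureCounts. The deposited table gives a whole-number count and a TPM for each gene and library. The counts were used as deposited. The deposited TPM values (a signal scaled to gene length and depth by the authors) rest on a length close to the gene span with introns, so levels were not compared between genes. The table holds 37 libraries, of which 27 have labels and 10 were not used in any step. Rows for eGFP and tdTomato were left out of the fits.

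Counts were fitted in R 4.3.3 with edgeR 4.0.16 (TMM, filterByExpr by group, count minimum 10, total minimum 15, quasi-likelihood test, Benjamini-Hochberg adjustment over all genes of a comparison, threshold 0.05). Fresh hepatocytes and HepOrgs (15 libraries), HepOrgs (12), assembloids (12) and the 1 week MM cultures (9) were fitted separately, with 1 mean per group. Effects over both times average the early and the late effect. The standard error was taken from the log2 fold change and the F statistic. Each fit was also run on simulated counts with the same dispersion for every gene and no library that stood apart. That setting differs from the assembloid data, and no result here rests on it.

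Alternatives were RLE size factors, DESeq2 1.42.0, stricter and no filters on counts, limma 3.58.1 on log2(TPM + 1), keeping genes that reached 1 TPM in 3 or more libraries, only the groups compared, all 27 libraries, the replicate number as a block, and each library left out. Settings without the libraries that stood apart, alone or with the block or limma, and without both MM replicates 3 were chosen after seeing the data. The members, role groups, pathway lists and markers were chosen with earlier results of these data known. The rule for named members took, in each comparison and role, the called members with the highest and lowest log2 fold change. Their statistics are printed mainly for the later time, some of them are given by levels only, and other members were named after their values were seen. Of the pathway lists the extremes of the called genes were named, apart from 1 gene that is not reported here, and Rxra and Ppargc1a were added after their values were seen.

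Same-numbered HepOrg libraries of different groups deviated together (18 of 18 pairs with a correlation over 0.1, median 0.207, against a median of −0.127 for different numbers), so the number was treated as a pairing there. What the number stands for is not given in the sources used here. Promoters are RefSeq sequences of GRCm38.p6, placed in GRCm39 by exact match, and gene positions and overlaps are those of GENCODE on GRCm39.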

Additional observations from a re-analysis of the deposited data

Results flagged for a closer look

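From 1 to 2 weeks, 6 members were higher in each same-numbered pair of MM libraries and lower in each pair of HM-Wnt libraries, as were 432 of 13075 genes (3.3%). The difference between the media in the log2 change was 2.94 for Cd36, 1.66 for Vnn1, 0.99 for Decr1, 0.90 for Etfdh, 0.83 for Eci1 and 0.82 for Slc25a20. By edgeR's interaction test none of the 6 passed (adjusted p = 0.3918 for Cd36 and Vnn1). With the replicate number as a block none passed either (adjusted p = 0.05475 for Vnn1 and 0.09072 for Cd36 by edgeR). DESeq2, without the block, called Cd36 and Vnn1 (adjusted p = 0.0009882 and 0.0003449). Cd36 changed by 2.07, 1.67 and 2.99 in the MM pairs and by −0.20, −1.81 and −0.45 in the HM-Wnt pairs, on log2(CPM + 0.5).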

How the results depend on the processing

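RLE size factors and either filter on low counts kept the number of members past the threshold within 1.5 times for all 18 comparisons. The fit of only the groups compared was run against fresh hepatocytes, and at each time between the media and between the mesenchyme ratios. It kept the number within 1.5 times in 7 of these comparisons and gave 0 for MM against HM-Wnt at 1 week. DESeq2 gave 13 there, 6 for MM over time, 4 for the medium by time and 3, 6 and 2 for fibrotic-like against homeostatic at 1 week, over both times, and fibrotic-like against MM. All 27 libraries in 1 fit gave 12, 13, 6 and 8 against fresh hepatocytes (HM-Wnt 1 and 2 weeks, MM 1 and 2 weeks), 0, 0 and 1 between the media, 0 for MM over time, and 2, 11 and 9 for the same 3 assembloid comparisons. The counts of this section compare settings, and no share of all genes is set beside them. Limma on log2(TPM + 1) gave 12 for MM against HM-Wnt at 1 week and 2 for MM over time. The cause was not tested. On that scale the sign reversed for Hadhb in MM against fresh hepatocytes at 1 week (0.068), for Crat, Acadl, Ehhadh and Acsl1 in fibrotic-like against homeostatic at 1 week (0.90, 0.45, 0.23 and 0.25), for Cpt1a, Crat, Etfa, Acadl and Eci2 over both times (0.21, 0.045, 0.58, 0.30 and 0.37) and for Etfa against MM (0.13), while the median of all genes shifted by 0.47, 0.87, 0.66 and 0.73. These assembloid values include homeostatic replicate 2 of 1 week, at 0 counts for Crat, Ehhadh, Acsl1 and Cpt1a. Without it that scale gave 13 calls at 1 week, 21 over both times and 13 against MM (12 lower and Acot1 higher), and the sign stayed reversed for Acadl (0.32 and 0.23) and Etfa (0.37 over both times and 0.13 against MM) but not for the others.

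The replicate block gave 14 for MM against HM-Wnt at 1 week and changed no other count of the main fits by over 1.5 times. Outside the HepOrg fit the numbers were not taken as a pairing (19 of 30, 6 of 18 and 2 of 9 pairs over 0.1). With homeostatic replicate 2 of 1 week left out, the block gave 0 at 1 week, 25 over both times and 26 for fibrotic-like against MM, which was 24 without the block. Without both MM replicates 3, MM against HM-Wnt at 1 week had 12 and MM over time 0. Without the 3 libraries that stood apart the assembloid counts were 28, 27 and 22, and 3 members were higher in fibrotic-like assembloids at 2.5 than at 1 week. Leaving out single libraries gave 23 to 25, 24 to 28, 20 to 24 and 15 to 19 calls against fresh hepatocytes, 0 to 6, 13 to 19 and 19 to 23 between the media, 0 to 1 for MM over time, 0 to 20 and 0 to 29 for fibrotic-like against homeostatic at 1 week and over both times, and 0 to 0 elsewhere where the library left out belonged to a group compared.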
